A study of Homo sapiens with 12 samples.

Results

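The interferon-stimulated genes described here are 39 named genes of the antiviral response, found among the 58037 entries of a gene count table by the Ensembl identifier that carries each symbol (RIGI stands in the older annotation as DDX58). Each symbol matched 1 entry. Their RNA was counted in 12 libraries from BT-549 and SUM149, 2 established human lines of triple-negative breast cancer. In each line, 3 libraries came from cells with a stable control hairpin, CshRNA, and 3 from cells with a stable short hairpin RNA against MUC1-C, the transmembrane subunit of the mucin MUC1 (MUC1shRNA). The deposited column names call the BT-549 controls vector. BT-549 grew in RPMI1640 medium with serum and insulin, SUM149 in Ham's F-12 medium with serum, insulin and hydrocortisone, and no library came from cells given interferon as far as the labels say. The labels name a single hairpin against MUC1 and do not say whether the 3 libraries of an arm came from separately made cell pools, so p-values measure the spread between these samples, which may be technical.

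Interferons made by infected cells bind receptors that signal through the kinases JAK1 and TYK2. The kinases activate STAT proteins, and STAT2 with IRF9 forms part of the complex ISGF3. ISGF3 binds the interferon-stimulated response element of its target promoters and switches on genes whose products sense, trap or degrade viral RNA, modify proteins, or amplify the signal. Many tumour cell lines keep part of this programme on with no virus present.

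Members of the group moved in both directions in each line. In SUM149, 30 genes had enough counts to be tested, of which 13 fell and 8 rose with the MUC1 hairpin, where 28.9% of all 14178 tested genes fell and 27.6% rose. The RNA-binding genes IFIT1, IFIT2 and IFIT3, the antiviral GTPase MX1, the paralogs IFI44 and IFI44L, IFITM1, OASL and the ISG15 ligase HERC5 each fell at least 2-fold in SUM149. SAMD9, a cytoplasmic restriction factor, and the exonuclease ISG20 rose at least 2-fold there, and PARP9, PARP14, DTX3L, OAS3, IFITM3 and ISG15 rose less. In BT-549, 33 genes were tested, of which 8 fell and 4 rose, where 16.5% of all 13200 tested genes fell and 16.8% rose. OAS1, OAS2, OAS3, MX2, IFITM1, IFITM3, IFIT1 and SAMD9 fell in BT-549, and IFIH1, HERC6, PARP14 and STAT2 rose. The median log2 fold change over the tested members was -0.28 in SUM149 and 0.037 in BT-549, beside -0.034 and -0.0053 over all genes tested. A change is called where edgeR's quasi-likelihood test gave a Benjamini-Hochberg adjusted p below 0.05 over all genes tested in that line. In these bulk libraries, a lower level in every cell and fewer cells that express a gene cannot be told apart.

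3 libraries lay apart from their replicates over all genes: BT-549 CshRNA 3, BT-549 MUC1shRNA 2 and SUM149 CshRNA 3, whose chi-square per degree of freedom against its replicates was 13.5 and 10.6, beside 3.8 between the other 2. Without SUM149 CshRNA 3, 20 members passed in SUM149 in place of 21, and without both of the BT-549 libraries 15 passed in BT-549 in place of 12. The counts in BT-549 depended on single libraries. A fit with fewer libraries can lose calls in any gene, and the share of all genes called in these fits is not given here. The losses are therefore not shown to be particular to the members. Without MUC1shRNA 1 or MUC1shRNA 3, 6 members passed in place of 12. The members that fell numbered 5 without CshRNA 1, 4 without MUC1shRNA 1 and 5 without MUC1shRNA 3, against 8 with all libraries. Those that rose numbered 2 without CshRNA 2, CshRNA 3 or MUC1shRNA 1 and 1 without MUC1shRNA 3, against 4. OAS1, OAS3, IFIH1, IFITM1 and MX2 passed in all 6 fits that each left out 1 library. In SUM149, 17 of the 21 calls passed in all 6 such fits.

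The promoters of these genes are shown first, because the letters that ISGF3 recognises stand in most of them. RefSeq windows on GRCh38.p14, from 250 bases before to 50 bases after a start site, were matched for 31 of the 39 genes by symbol. USP18, IFIT2, OAS2, OASL, DHX58, IFITM2, MX2 and IRF7 had none. The core of the response element, the letters GAAA, any 2 bases and GAAA again, searched on both strands, stood in a window of 22 of the 31 genes, beside 4.38% of all 27305 genes with a window. A longer form that contains it, with CT after the last GAAA, stood in 15 of 31, beside 0.322% of genes. The letters of the gamma-activated site, TTCNNNGAA, which read the same on both strands, stood in 9 of 31, beside 9.38%. HERC6, OAS1, RIGI, CMPK2, SAMD9L, IFI35, XAF1, STAT2 and IRF9 had a window without the core letters. A match describes the sequence, and no binding was measured here.

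Among genes that fell in SUM149, IFIT1, IFIT3, IFI44, HERC5, IFI44L and BST2 carry the core letters, here in capitals, within the bases upstream of the start. All of these but BST2 fell at least 2-fold. IFIT3 and IFI44 each have 2 windows, and the stretch shown is upstream of the start that lies farther downstream. The other window of IFIT3 carries core letters as well. Sequences run 5′ to 3′ in the direction of the gene, and capitals that read TTTC are the core on the other strand.
IFIT1 promoter, chr10:89392487-89392549 (+ strand): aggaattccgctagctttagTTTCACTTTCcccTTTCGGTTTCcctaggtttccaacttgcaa
IFIT3 promoter, chr10:89332415-89332507 (+ strand): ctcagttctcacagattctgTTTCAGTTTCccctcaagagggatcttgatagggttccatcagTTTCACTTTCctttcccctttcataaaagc
IFI44 promoter, chr1:78649751-78649800 (+ strand): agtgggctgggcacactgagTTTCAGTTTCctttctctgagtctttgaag
HERC5 promoter, chr4:88456974-88457074 (+ strand): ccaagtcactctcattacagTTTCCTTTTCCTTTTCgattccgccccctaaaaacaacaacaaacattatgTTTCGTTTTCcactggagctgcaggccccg
IFI44L promoter, chr1:78620264-78620404 (+ strand): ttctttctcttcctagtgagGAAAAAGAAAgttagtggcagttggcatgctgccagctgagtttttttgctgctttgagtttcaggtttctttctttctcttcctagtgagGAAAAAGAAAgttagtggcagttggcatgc
BST2 promoter, chr19:17405725-17405780 (- strand): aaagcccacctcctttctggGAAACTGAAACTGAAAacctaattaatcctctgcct

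Genes that rose in SUM149 carry the same letters, with the core again in capitals. PARP9 and DTX3L lie head to head and share 1 copy, at chr3:122564332-122564341, so they are not separate cases. PARP9 has 2 windows, and a single one is shown.
SAMD9 promoter, chr7:93118086-93118135 (- strand): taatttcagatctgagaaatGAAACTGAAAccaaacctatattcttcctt
PARP9 promoter, chr3:122564312-122564361 (- strand): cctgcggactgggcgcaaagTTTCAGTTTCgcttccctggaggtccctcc
OAS3 promoter, chr12:112938311-112938473 (+ strand): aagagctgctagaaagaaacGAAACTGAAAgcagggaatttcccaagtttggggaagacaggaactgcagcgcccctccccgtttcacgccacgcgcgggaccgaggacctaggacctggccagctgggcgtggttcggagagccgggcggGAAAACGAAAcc
IFITM3 promoter, chr11:320866-320932 (- strand): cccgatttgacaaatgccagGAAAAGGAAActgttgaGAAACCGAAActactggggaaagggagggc
ISG20 promoter, chr15:88638927-88638976 (+ strand): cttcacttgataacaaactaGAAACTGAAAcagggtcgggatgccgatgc
The promoter of IFIH1, which rose in BT-549, is the last shown.
IFIH1 promoter, chr2:162318685-162318863 (- strand): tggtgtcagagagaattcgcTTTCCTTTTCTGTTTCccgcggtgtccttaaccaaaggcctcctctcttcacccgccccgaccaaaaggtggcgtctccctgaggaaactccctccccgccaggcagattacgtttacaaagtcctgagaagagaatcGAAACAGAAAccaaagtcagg

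The core letters thus stood beside changes in both directions. They were in windows of 8 of the 8 members that rose in SUM149 and of 9 of the 10 with a window that fell. In BT-549 they were in 2 of 4 that rose and 5 of 6 that fell. The longer form stood in 4 of 8 risers and 8 of 10 fallers in SUM149, counts that were not tested against each other.

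Levels are given in CPM, counts scaled to a common library total after TMM adjustment. Total counts ran from 16332365 to 21248768 per library in BT-549, from 19392422 to 24140623 in SUM149 CshRNA and from 7931614 to 9623924 in SUM149 MUC1shRNA, so low levels in the last group rest on few counts. MUC1 itself was at 51.9, 53.6 and 54.3 CPM in the BT-549 CshRNA libraries and 3.6, 6.01 and 4.28 with the MUC1 hairpin, and at 16.3, 16.6 and 12.1 against 1.06, 0.334 and 0.481 CPM in SUM149. It fell by 3.53 (SE 0.14) and 4.59 (SE 0.27) on the log2 scale. Of the receptors that triple-negative cells lack, ESR1 was at 0 to 0.157 CPM in BT-549 CshRNA and 2.11 to 2.64 in SUM149 CshRNA, PGR at no more than 1.55 in any library, and ERBB2 at 34.5 to 61.5. With the MUC1 hairpin ESR1 rose in SUM149, to 4.71 to 5.01 CPM (log2 fold change 1.09, SE 0.20, edgeR adjusted p = 0.000365). ERBB2 fell there (log2 fold change -0.67, SE 0.079, edgeR adjusted p = 9.87e-06). In BT-549 ERBB2 did not pass (edgeR adjusted p = 0.486) and ESR1 was not tested. The epithelial markers EPCAM and CDH1 were near 0 in BT-549, at most 0.626 and 1.72 CPM, and at 380.3 to 425 and 179 to 229.8 CPM in SUM149 CshRNA. Summed over 6 epithelial markers, the level was 328 to 382 CPM in BT-549 CshRNA and 807 to 1046 with the MUC1 hairpin, mostly KRT8 and KRT18, and 1984 to 2021 against 1895 to 1982 in SUM149. The sum in SUM149 covers falls of KRT5 (log2 fold change -0.99, SE 0.067, edgeR adjusted p = 5.99e-08) and KRT19 (log2 fold change -0.41, SE 0.066, edgeR adjusted p = 0.000143). The other 4 markers did not pass there. Over 12 leukocyte markers the summed level was 1.99 to 2.18 against 1.94 to 2.53 CPM in BT-549 and 5.2 to 5.44 against 2.95 to 3.66 in SUM149, with CD3E, MS4A1, FCGR3A and CLEC4C at 0 in every library. In BT-549 that sum covers opposite changes of 2 markers, both low: PTPRC fell from 1.4, 0.862 and 0.939 to 0.257, 0.295 and 0.267 CPM (log2 fold change -1.95, SE 0.36, edgeR adjusted p = 0.00295), and CD74, the invariant chain of MHC class II, rose from 0, 0.331 and 0.313 to 1.39, 0.943 and 0.802 CPM (log2 fold change 2.29, SE 0.57, edgeR adjusted p = 0.0131). In SUM149 CD14 fell (log2 fold change -0.81, SE 0.20, edgeR adjusted p = 0.00318). Over 6 endothelial markers it was 0.331 to 0.783 against 0.267 to 0.411 CPM in BT-549 and 27.2 to 30.8 against 9.92 to 11.6 in SUM149, nearly all of it PECAM1, with CDH5 at 0 in BT-549 and at no more than 0.118 in SUM149. The part of these shifts in the results was not tested.

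The lines started from different levels. Between the CshRNA libraries, 37 members were tested and 35 differed, 20 of them higher in BT-549 and 15 lower, where 39.5% and 43.3% of all 15155 tested genes were higher and lower. The median log2 difference, BT-549 minus SUM149, was 0.92 over the members and -0.067 over all genes. Under upper-quartile scaling the median of all genes was -0.20. IFITM2, IFI44L and OASL were far lower in BT-549 (log2 differences -7.34, -5.25 and -4.41), and XAF1, SAMD9L and OAS2 far higher (6.98, 6.39 and 4.49). Line, medium and control construct cannot be told apart in this comparison. Per kilobase of exon, IFITM3 led in BT-549 CshRNA at 241 ± 14 RPKM (SD, n = 3), above DTX3L at 19.2 ± 3.23, IFI6 at 18.2 ± 2.35 and ISG15 at 17.6 ± 2.09, and these last 3 overlapped their neighbours in the order. In SUM149 CshRNA the order began with BST2 at 30.1 ± 1.03 RPKM, IFITM3 at 28.6 ± 0.261 and IFITM2 at 18.7 ± 0.623, which did not overlap, and then DTX3L at 7.91 ± 0.363. RSAD2, CMPK2 and IFI27 were too low to be tested for a response in either line, with at most 0.796 CPM in any library.

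**Figure D1:**
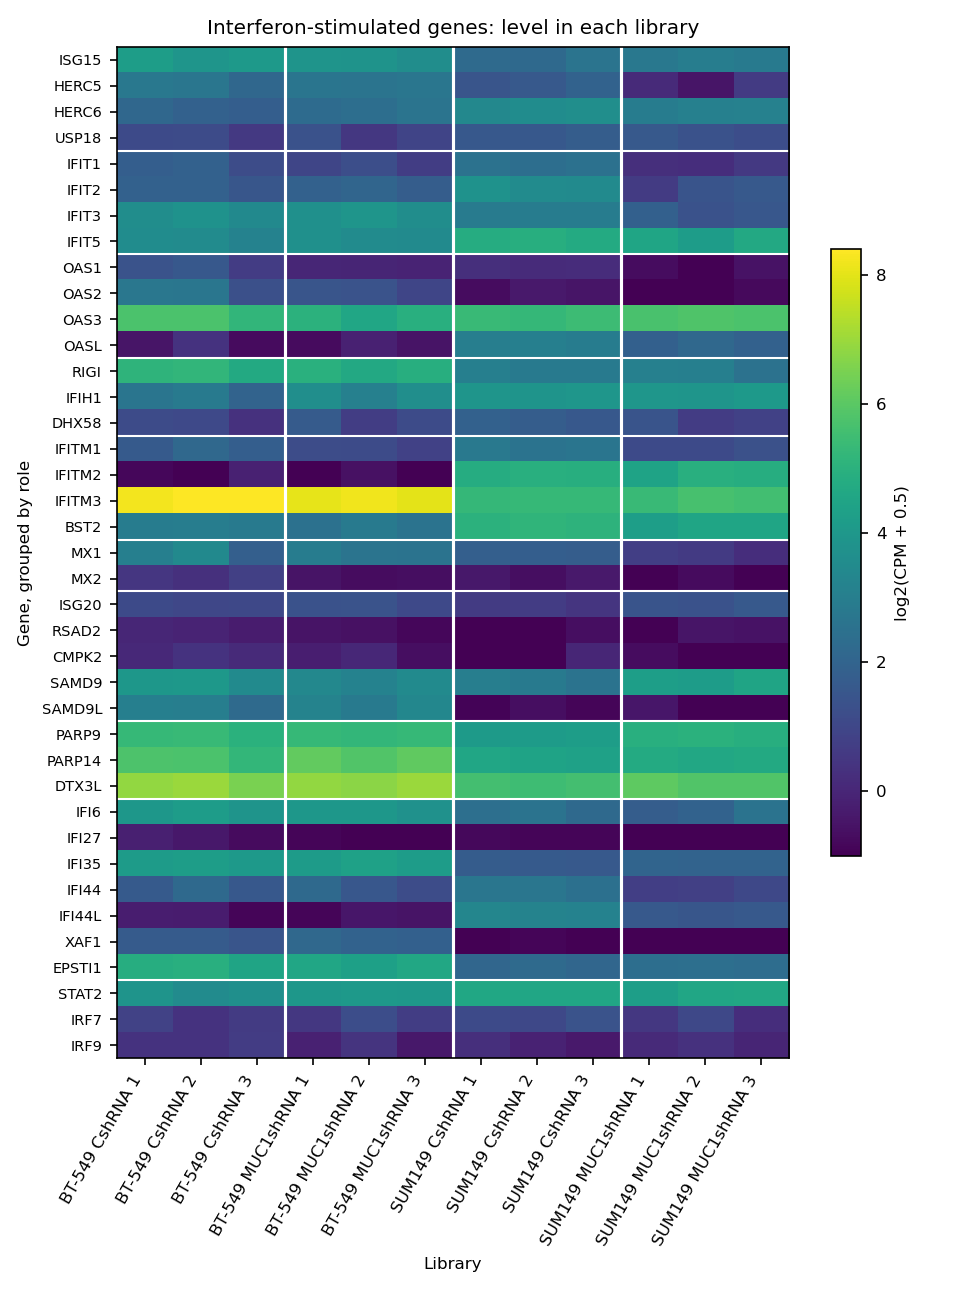
Level of each of the 39 genes (rows, grouped by role) in each of the 12 libraries (columns), as log2 of CPM plus a pseudocount of 0.5. IFITM3 is the brightest row in BT-549 at 257 to 339 CPM, and IFITM2 is dark in BT-549 and bright in SUM149.

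ISG15 and its enzymes moved in different directions. ISG15 is a ubiquitin-like protein that is joined to other proteins, HERC5 is its main human ligase, HERC6 is a close relative of HERC5, and USP18 removes ISG15 and restrains the receptor. ISG15 was at 18.6, 14.7 and 16.5 CPM in the BT-549 CshRNA libraries and 14.1, 13.9 and 11.8 with the MUC1 hairpin. In SUM149 it was at 4.29, 4.11 and 5.7 against 6.25, 7.35 and 6.64 CPM. The silenced libraries lay below the controls in BT-549 and above them in SUM149. ISG15 rose in SUM149 (log2 fold change 0.54, SE 0.18, edgeR adjusted p = 0.0199) and missed the threshold in BT-549 (log2 fold change -0.32, SE 0.11, edgeR adjusted p = 0.0536). In BT-549 it passed under upper-quartile scaling (edgeR adjusted p = 0.0459), without the filter (0.0345) and without CshRNA 2 (0.0289), as the lower level. The response in BT-549 less that in SUM149 passed its own test (log2 -0.84, SE 0.21, edgeR adjusted p = 0.00441). Its call in SUM149 was lost without CshRNA 1 (0.0769), CshRNA 2 (0.0833) and MUC1shRNA 2 (0.0583), with the edgeR adjusted p in parentheses, while 4.7 ± 0.869 and 6.75 ± 0.557 CPM (SD, n = 3) were the arm means.

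HERC5 was at 2.3, 2.6 and 3.37 CPM in SUM149 CshRNA and 0.589, 0.223 and 1.06 with the MUC1 hairpin, from 189 and 18 counts. The arms did not overlap, and HERC5 fell by 2.08 on the log2 scale (SE 0.37, edgeR adjusted p = 0.000366). In BT-549 its level was 6.32, 5.9 and 3.96 CPM in CshRNA and 5.86, 5.6 and 5.95 in MUC1shRNA, with CshRNA 3 the lowest of all 6 (log2 fold change 0.11, SE 0.17, edgeR adjusted p = 0.665). HERC6 was at 3.86, 3.25 and 3.03 against 4.42, 4.77 and 5.68 CPM in BT-549, and the silenced libraries were all higher. In SUM149 HERC6 was at 10.1, 11.5 and 12 against 7.19, 8.13 and 8.28 CPM, and the silenced libraries were all lower. HERC6 rose in BT-549 (log2 fold change 0.54, SE 0.16, edgeR adjusted p = 0.0287) and fell in SUM149 (log2 fold change -0.49, SE 0.13, edgeR adjusted p = 0.00595), and the difference passed (log2 1.05, SE 0.21, edgeR adjusted p = 0.000891). The rise in BT-549 was lost without CshRNA 2 (0.0661), CshRNA 3 (0.0793) and MUC1shRNA 3 (0.11). USP18 passed in neither line, with means of 1.46 ± 0.411 and 1.47 ± 0.56 CPM in BT-549 and 2.65 ± 0.269 and 2.18 ± 0.386 in SUM149 (SD, n = 3).

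All 4 IFIT genes, which lie side by side on chromosome 10 and encode proteins that bind foreign RNA ends, fell in SUM149. IFIT1 was at 5.4, 4.77 and 5.19 CPM in SUM149 CshRNA and 0.707, 0.668 and 0.963 with the MUC1 hairpin, from 356 and 22 counts. Every silenced library was far below every control, a fall of 2.68 on the log2 scale (SE 0.24, edgeR adjusted p = 7.02e-07). In BT-549 IFIT1 was at 3.02, 3.31 and 1.77 against 1.44, 1.89 and 1.14 CPM. There the arms overlapped, since CshRNA 3 lay below MUC1shRNA 2, and the fall was smaller (log2 fold change -0.84, SE 0.28, edgeR adjusted p = 0.0455). That call was lost without CshRNA 1 (0.143), CshRNA 2 (0.125), MUC1shRNA 1 (0.13) and MUC1shRNA 3 (0.143), and was -1.27 without both CshRNA 3 and MUC1shRNA 2. With all libraries it missed the threshold in DESeq2 (adjusted p = 0.0514) and limma-voom (adjusted p = 0.0676). IFIT2, a partner of IFIT1 and IFIT3, was at 13.3, 11.2 and 10.8 against 1.06, 2.23 and 2.6 CPM in SUM149. It fell by 2.54 (SE 0.23, edgeR adjusted p = 7.53e-07), with no overlap of the arms and MUC1shRNA 1 the lowest library. In BT-549 IFIT2 was at 3.3, 3.25 and 2.35 against 3.24, 3.71 and 2.94 CPM, levels that overlapped (log2 fold change 0.16, SE 0.19, edgeR adjusted p = 0.544).

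IFIT3, which stabilises IFIT1 binding to RNA, was at 7.12, 7.13 and 7.25 CPM in SUM149 CshRNA and 3.18, 2.11 and 2.41 with the MUC1 hairpin, again without overlap. Its fall in SUM149 was 1.47 on the log2 scale (SE 0.19, edgeR adjusted p = 1.87e-05). BT-549 libraries held 11.8, 13.4 and 10.5 against 12.6, 14.6 and 11.6 CPM of IFIT3, and the arms overlapped (log2 fold change 0.13, SE 0.12, edgeR adjusted p = 0.457). IFIT5 was the most abundant of the family per kilobase in SUM149 CshRNA, at 6.98 ± 0.364 RPKM, and changed least. It was at 27.9, 29.6 and 26.7 against 22.4, 17.9 and 24.9 CPM in SUM149, where the silenced libraries were lower (log2 fold change -0.35, SE 0.11, edgeR adjusted p = 0.0151). The call was lost without CshRNA 2 (0.051) and MUC1shRNA 2 (0.0924), and without MUC1shRNA 2 the log2 fold change was -0.21. In BT-549 IFIT5 was at 11.5, 11.2 and 8.61 against 12.8, 11.1 and 11 CPM, with overlapping arms (log2 fold change 0.16, SE 0.13, edgeR adjusted p = 0.365). The difference between lines passed for all 4, at 1.85 for IFIT1 (SE 0.41, edgeR adjusted p = 0.00203), 2.72 for IFIT2 (SE 0.32, edgeR adjusted p = 1.03e-05), 1.62 for IFIT3 (SE 0.22, edgeR adjusted p = 3.17e-05) and 0.53 for IFIT5 (SE 0.18, edgeR adjusted p = 0.0314).

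**Figure D2:**
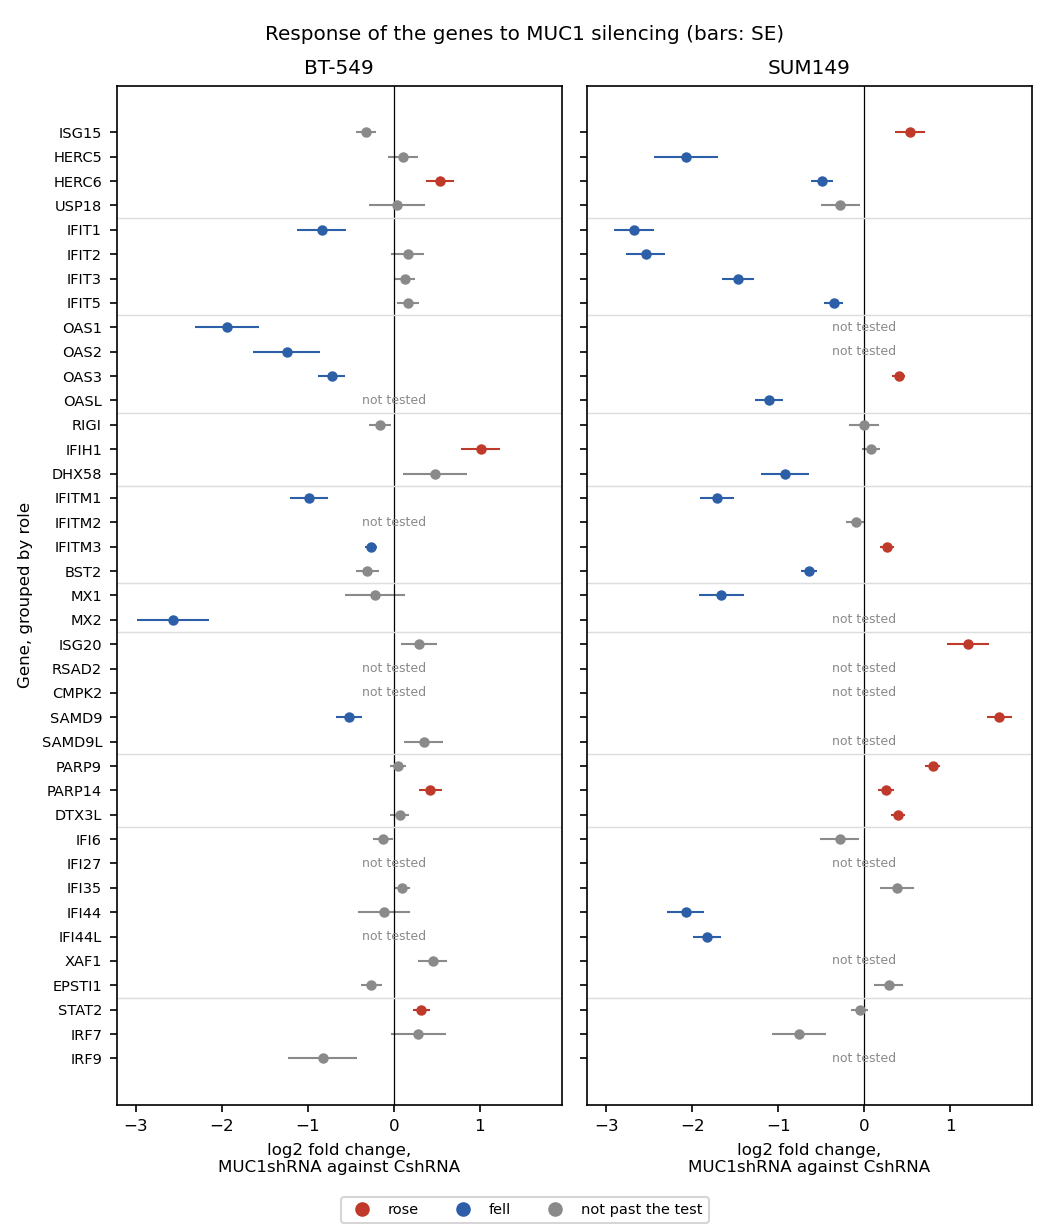
Log2 fold change of each gene, MUC1shRNA against CshRNA, in BT-549 (left) and SUM149 (right). Points are edgeR estimates from 3 libraries an arm, bars 1 SE, red points rose, blue fell, and grey did not pass. The IFIT genes sit left of 0 in SUM149, from -2.68 to -0.35, and the OAS genes left of 0 in BT-549, from -1.94 to -0.72.

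The oligoadenylate synthetases OAS1, OAS2 and OAS3, which on double-stranded RNA make the short oligoadenylates that switch on the ribonuclease RNase L, all fell in BT-549. OAS3 was at 53.6, 52.4 and 36.3 CPM in CshRNA and 32.3, 23.5 and 30.4 in MUC1shRNA. CshRNA 3 was the lowest control and still above every silenced library, and OAS3 fell by 0.72 on the log2 scale (SE 0.16, edgeR adjusted p = 0.00683). In SUM149 OAS3 was at 41.3, 37.5 and 43.4 against 51.4, 55.3 and 53.6 CPM, with all silenced libraries higher (log2 fold change 0.41, SE 0.077, edgeR adjusted p = 0.000562). The difference between the lines was -1.11 (SE 0.19, edgeR adjusted p = 0.000332). OAS2 was at 6.21, 6.03 and 1.98 against 2.26, 2.12 and 1.47 CPM in BT-549. Here CshRNA 3 lay among the silenced libraries and the other controls far above them (log2 fold change -1.25, SE 0.39, edgeR adjusted p = 0.0347). The call was lost when any library but CshRNA 3 was left out, at CshRNA 1 (0.14), CshRNA 2 (0.0975), MUC1shRNA 1 (0.0728), MUC1shRNA 2 (0.0505) and MUC1shRNA 3 (0.108), and without CshRNA 3 the fall was 1.63 (edgeR adjusted p = 0.000289). In SUM149 OAS2 held 0.115, 0.283 and 0.228 against 0, 0 and 0.0963 CPM, too few counts to test.

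OAS1 was low, at 1.91 ± 0.735 CPM in BT-549 CshRNA and 0.485 ± 0.0258 with the MUC1 hairpin (SD, n = 3), from 97 and 25 counts, and the arms did not overlap (log2 fold change -1.94, SE 0.37, edgeR adjusted p = 0.0035). In SUM149 it held 45 and 3 counts and was not tested. OASL, the member of the family without synthetase activity, was expressed in SUM149, at 7.7, 7.79 and 7.2 CPM in CshRNA and 3.18, 4.01 and 3.27 in MUC1shRNA. It fell there by 1.104 on the log2 scale (SE 0.17, edgeR adjusted p = 8.16e-05) with no overlap. BT-549 held 0.224, 0.796 and 0.104 against 0.103, 0.413 and 0.201 CPM of OASL and was not tested.

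Of the cytoplasmic RNA sensors, IFIH1 rose in BT-549, DHX58 fell in SUM149 and RIGI passed in neither line. IFIH1, also called MDA5, binds long double-stranded RNA. It was at 5.82, 6.63 and 3.5 CPM in BT-549 CshRNA and 11.9, 7.96 and 12 with the MUC1 hairpin, with CshRNA 3 lowest and no overlap (log2 fold change 1.01, SE 0.23, edgeR adjusted p = 0.00858). In SUM149 it was at 14.3, 13.9 and 14.9 against 15, 14.4 and 16 CPM, levels that overlapped (log2 fold change 0.083, SE 0.10, edgeR adjusted p = 0.504). The difference between the lines passed (log2 0.94, SE 0.27, edgeR adjusted p = 0.0106). DHX58, or LGP2, modulates the other sensors, and was at 3.29, 2.93 and 2.51 against 2.24, 1.11 and 1.25 CPM in SUM149, all silenced libraries lower (log2 fold change -0.92, SE 0.28, edgeR adjusted p = 0.0122). That call was lost without MUC1shRNA 2 (0.0699) and MUC1shRNA 3 (0.0702). In BT-549 DHX58 was at 1.73, 1.59 and 0.783 against 2.73, 1.12 and 1.74 CPM and the arms overlapped (log2 fold change 0.48, SE 0.37, edgeR adjusted p = 0.357). Its difference between lines was 1.41 (SE 0.51, edgeR adjusted p = 0.0399), and was lost without BT-549 CshRNA 3 (0.0902), BT-549 MUC1shRNA 1 (0.15), BT-549 MUC1shRNA 3 (0.055), SUM149 CshRNA 1 (0.077), SUM149 CshRNA 2 (0.0602), SUM149 MUC1shRNA 2 (0.102) and SUM149 MUC1shRNA 3 (0.1). RIGI, which binds triphosphorylated RNA ends, had means of 31.7 ± 5.37 and 28.4 ± 3.12 CPM in BT-549 (log2 fold change -0.16, SE 0.13, edgeR adjusted p = 0.364) and 7.13 ± 0.633 and 7.1 ± 1.48 in SUM149 (log2 fold change -0.0021, SE 0.17, edgeR adjusted p = 0.993).

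The membrane proteins IFITM1 and IFITM3, which block fusion of enveloped viruses, took different courses. IFITM1 was at 2.63, 3.98 and 3.03 against 1.8, 1.71 and 1.27 CPM in BT-549 and fell by 0.99 (SE 0.22, edgeR adjusted p = 0.00848). In SUM149 it was at 6.51, 5.43 and 5.79 against 1.65, 1.67 and 2.02 CPM and fell by 1.71 (SE 0.20, edgeR adjusted p = 8.69e-06). In both lines every silenced library lay below every control. The responses did not differ past the threshold (log2 0.73, SE 0.31, edgeR adjusted p = 0.0717), but did with the 5 CPM filter (0.0473) and without BT-549 CshRNA 2 (0.0313) or MUC1shRNA 3 (0.0426). IFITM3 was at 303, 339 and 331 CPM in BT-549 CshRNA and 263, 294 and 257 with the MUC1 hairpin, all silenced libraries lower (log2 fold change -0.26, SE 0.068, edgeR adjusted p = 0.0156). In SUM149 IFITM3 was at 38.3, 38.4 and 39 against 41.3, 50.4 and 46.4 CPM, all silenced libraries higher (log2 fold change 0.27, SE 0.083, edgeR adjusted p = 0.0139). Both changes were small and in opposite directions, and their difference passed (log2 -0.51, SE 0.11, edgeR adjusted p = 0.00129). The fall in BT-549 was lost without MUC1shRNA 1 (0.0752) and MUC1shRNA 3 (0.0749).

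IFITM2, a paralog, was near 0 in BT-549, with 9 and 3 counts, and at 28.8 ± 0.961 and 26.6 ± 4.63 CPM in SUM149 (log2 fold change -0.097, SE 0.11, edgeR adjusted p = 0.476). These values are uncertain, because the IFITM genes are near-identical in part, IFITM1 shares 32.5% of its exon bases with an IFITM2 transcript on the same strand, and 21.3% of those of IFITM3 overlap AC136475.5 on the opposite strand. BST2, or tetherin, holds budding virus particles at the cell surface. It was at 32.6, 34.9 and 33.4 CPM in SUM149 CshRNA and 18.7, 22.7 and 22.5 with the MUC1 hairpin, and fell by 0.64 (SE 0.093, edgeR adjusted p = 6.17e-05). In BT-549 BST2 was at 7.27, 7.42 and 6.63 against 5.14, 6.6 and 5.55 CPM. The silenced libraries were all lower by a narrow margin, and the change did not pass (log2 fold change -0.31, SE 0.13, edgeR adjusted p = 0.108).

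The dynamin-like GTPases MX1 and MX2 block incoming viral particles. MX1 was at 3.14, 2.98 and 2.92 CPM in SUM149 CshRNA and 1.18, 1 and 0.674 with the MUC1 hairpin, from 209 and 26 counts. Its silenced libraries were all lower, and MX1 fell by 1.66 (SE 0.26, edgeR adjusted p = 0.000133). In BT-549 the controls spread widely, at 7.78, 10.7 and 3.08 against 7.15, 5.6 and 5.41 CPM, with CshRNA 3 below every silenced library (log2 fold change -0.22, SE 0.35, edgeR adjusted p = 0.667). Without CshRNA 3 MX1 passed in BT-549 as well, at -0.59 (edgeR adjusted p = 0.0326), while without CshRNA 2 its sign turned, at 0.17. The difference between lines lay at the threshold and did not pass (log2 1.45, SE 0.56, edgeR adjusted p = 0.0512). It passed under upper-quartile scaling (0.0442), without the filter (0.000279), with the 5 CPM filter (0.0464), without CshRNA 2 (0.00797) or CshRNA 3 (0.0174) of BT-549, and without both BT-549 libraries that lay apart (0.0174), with edgeR adjusted p in parentheses, and in DESeq2 (adjusted p = 0.0241), but not in limma-voom (adjusted p = 0.0837). MX2 was low and fell in BT-549, from 0.941 ± 0.239 to 0.152 ± 0.0468 CPM (SD, n = 3; 50 and 8 counts), with no overlap (log2 fold change -2.57, SE 0.42, edgeR adjusted p = 0.00157). In SUM149 MX2 held 16 and 1 counts and was not tested.

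SAMD9, a restriction factor of the cytoplasm, showed opposite changes in the lines. It was at 7.7, 6.61 and 5.47 CPM in SUM149 CshRNA and 18.7, 17.7 and 22.1 with the MUC1 hairpin. All silenced libraries were more than 2-fold above all controls, a rise of 1.58 on the log2 scale (SE 0.14, edgeR adjusted p = 9.48e-07). In BT-549 it was at 15.3, 15.8 and 10.9 against 9.92, 8.61 and 10.7 CPM, where CshRNA 3 was only just above MUC1shRNA 3 (log2 fold change -0.52, SE 0.15, edgeR adjusted p = 0.0242). The fall was lost without CshRNA 1 (0.0969), CshRNA 2 (0.0742), MUC1shRNA 1 (0.0686) and MUC1shRNA 2 (0.0614). The difference of the responses was -2.08 (SE 0.23, edgeR adjusted p = 4.58e-06). Its paralog SAMD9L had enough counts for a test in BT-549 but not in SUM149, at 6.6 ± 2.01 and 8.36 ± 1.55 CPM (log2 fold change 0.35, SE 0.22, edgeR adjusted p = 0.264), with 5 and 2 counts in SUM149.

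ISG20, an exonuclease that degrades RNA, was at 1.07, 1.09 and 0.866 CPM in SUM149 CshRNA and 2.24, 2.11 and 2.6 with the MUC1 hairpin, from 70 and 65 counts, and the silenced libraries were all higher (log2 fold change 1.21, SE 0.25, edgeR adjusted p = 0.00104). In BT-549 it was at 1.68, 1.52 and 1.56 against 2.06, 2.18 and 1.6 CPM, and the arms overlapped (log2 fold change 0.30, SE 0.21, edgeR adjusted p = 0.3). The difference between lines was -0.90 (SE 0.31, edgeR adjusted p = 0.0316) and was lost without BT-549 CshRNA 1 (0.0652), BT-549 CshRNA 3 (0.0524), BT-549 MUC1shRNA 1 (0.0503), BT-549 MUC1shRNA 3 (0.0783), SUM149 CshRNA 3 (0.0589) and SUM149 MUC1shRNA 3 (0.0904). RSAD2, or viperin, which makes a chain-terminating nucleotide, and its neighbour CMPK2, a mitochondrial nucleotide kinase, had 22 and 33 counts in BT-549 CshRNA, 8 and 18 with the MUC1 hairpin, and 3 and 11 in SUM149 CshRNA, 4 and 1 with the hairpin.

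PARP9 and DTX3L form a complex that modifies ubiquitin, and PARP14 attaches ADP-ribose to proteins. All 3 rose in SUM149, where PARP9 was at 17, 17.6 and 18.5 CPM in CshRNA and 30.4, 32.1 and 29.2 in MUC1shRNA (log2 fold change 0.80, SE 0.086, edgeR adjusted p = 4.63e-06). In BT-549 PARP9 was at 39.1, 40.2 and 31.8 against 39.4, 36.8 and 38.7 CPM, with CshRNA 3 lowest and the rest level (log2 fold change 0.047, SE 0.091, edgeR adjusted p = 0.721). Its responses differed by -0.73 (SE 0.13, edgeR adjusted p = 0.000282). DTX3L was at 47.3, 44 and 48 against 67.2, 56.9 and 57.8 CPM in SUM149, all silenced libraries higher (log2 fold change 0.39, SE 0.079, edgeR adjusted p = 0.000873). In BT-549 it was at 119, 128 and 91.2 against 118, 109.9 and 127 CPM and the arms overlapped (log2 fold change 0.069, SE 0.11, edgeR adjusted p = 0.662). The responses of DTX3L did not differ past the threshold (log2 -0.31, SE 0.15, edgeR adjusted p = 0.121), but did without BT-549 CshRNA 3 (0.00676). PARP14 was at 54.4, 53.6 and 37.2 against 69.5, 57.5 and 68 CPM in BT-549 and at 23.3, 21.2 and 20.5 against 26.6, 24.3 and 26 CPM in SUM149, higher in all silenced libraries of each line. It rose in both lines, by 0.43 (SE 0.13, edgeR adjusted p = 0.0345) and 0.25 (SE 0.090, edgeR adjusted p = 0.0283). The rise in BT-549 was lost without MUC1shRNA 1 (0.12) and MUC1shRNA 3 (0.103), and was 0.27 without CshRNA 3. In SUM149 it was lost without CshRNA 2 (0.0925), CshRNA 3 (0.0754), MUC1shRNA 1 (0.0726) and MUC1shRNA 3 (0.078) and under upper-quartile scaling (edgeR adjusted p = 0.0772).

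**Figure D3:**
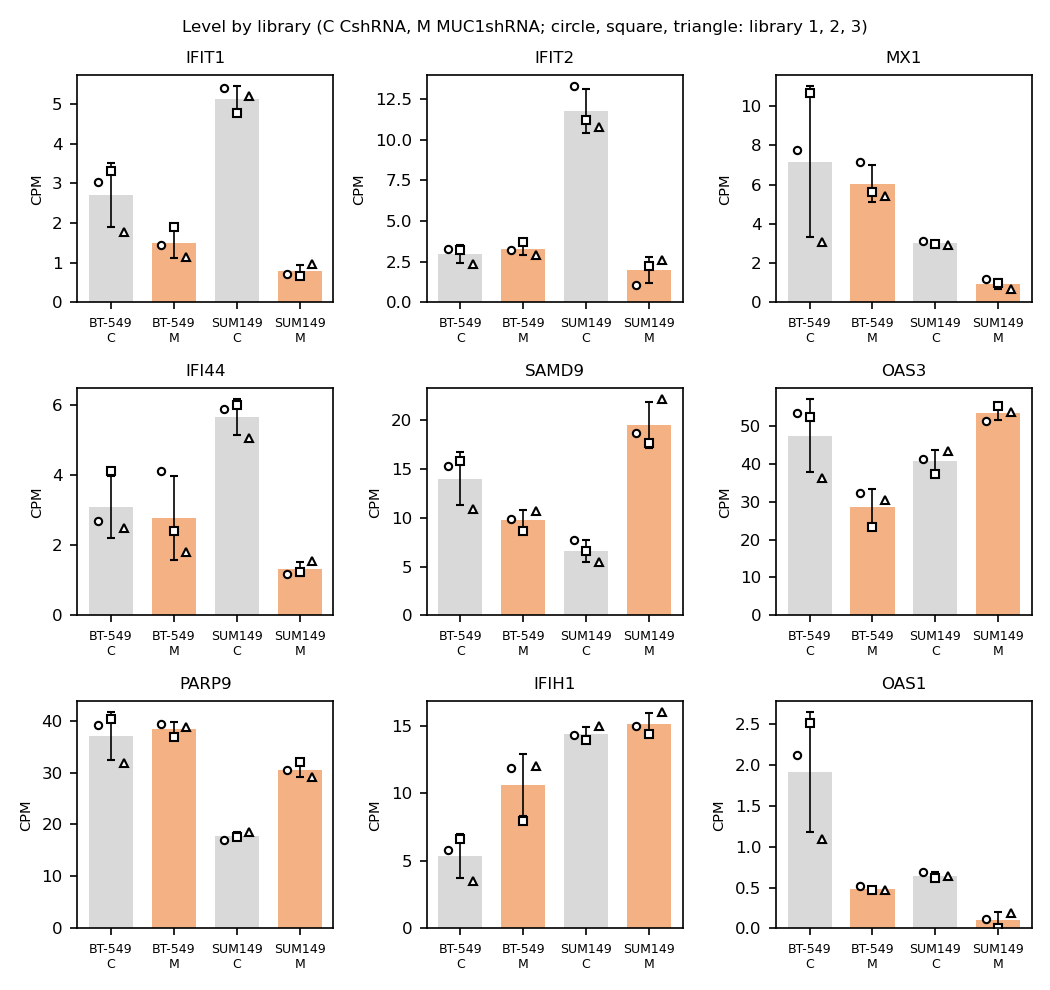
Level in CPM (each axis starts at 0) of 9 of the genes by arm. Bars are means over 3 libraries, error bars SD, and symbols the libraries. SAMD9 and OAS3 move down in BT-549 and up in SUM149, IFIT1 moves down in both lines, and in BT-549 the triangle of CshRNA 3 is the lowest control in all 9 panels.

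IFI44 and IFI44L, adjacent paralogs on chromosome 1, fell in SUM149. IFI44 was at 5.9, 6 and 5.06 CPM in CshRNA and 1.18, 1.22 and 1.54 in MUC1shRNA, from 392 and 37 counts, with no overlap (log2 fold change -2.08, SE 0.21, edgeR adjusted p = 2.89e-06). In BT-549 it was at 2.69, 4.11 and 2.5 against 4.11, 2.42 and 1.8 CPM, and the arms overlapped widely (log2 fold change -0.11, SE 0.30, edgeR adjusted p = 0.802). The difference was 1.96 (SE 0.42, edgeR adjusted p = 0.00163). IFI44L was at 9.57, 8.78 and 8.61 against 2.59, 2.34 and 2.6 CPM in SUM149, again with no overlap (log2 fold change -1.83, SE 0.16, edgeR adjusted p = 7.3e-07). BT-549 held 0.336, 0.331 and 0.0522 against 0.0514, 0.236 and 0.201 CPM of IFI44L, too few counts to test. The remaining members of this group did not pass in either line. IFI6, a protein of the endoplasmic reticulum, had means of 15.7 ± 2.03 and 14.4 ± 1.22 CPM in BT-549 and 4.87 ± 0.692 and 3.92 ± 1.37 in SUM149. IFI35 was at 17.3 ± 1.06 and 18.6 ± 1.45 CPM in BT-549 and at 2.69 ± 0.125 and 3.48 ± 0.0454 in SUM149, and EPSTI1 at 26.9 ± 4.19 and 22.5 ± 2.34 CPM in BT-549 and 3.96 ± 0.256 and 4.78 ± 0.144 in SUM149. EPSTI1 passed the test of the difference between lines (log2 -0.53, SE 0.20, edgeR adjusted p = 0.0474), a call that only 2 of the 12 fits with 1 library left out kept, those without BT-549 CshRNA 3 or MUC1shRNA 3. XAF1, which binds the apoptosis inhibitor XIAP, was at 2.61 ± 0.271 and 3.54 ± 0.456 CPM in BT-549 (log2 fold change 0.45, SE 0.17, edgeR adjusted p = 0.07) and had 1 and 0 counts in SUM149. Of its exon bases 38.3% overlap PRAL on the opposite strand. IFI27, a mitochondrial protein, had 13 and 1 counts in BT-549 and 4 and 0 in SUM149.

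Of the transcription factors of the response, STAT2 passed in BT-549, and IRF7 and IRF9 passed in no line in which they were tested. STAT2, a subunit of ISGF3, was at 13.9, 11.2 and 12.4 CPM in BT-549 CshRNA and 15.2, 16.1 and 15.7 with the MUC1 hairpin, all silenced libraries higher (log2 fold change 0.32, SE 0.10, edgeR adjusted p = 0.0346). The rise was lost in every fit that left out a library other than CshRNA 1, at CshRNA 2 (0.0946), CshRNA 3 (0.0674), MUC1shRNA 1 (0.0776), MUC1shRNA 2 (0.0653) and MUC1shRNA 3 (0.0889). In SUM149 STAT2 was at 23.5, 23.5 and 23.1 against 19, 23.5 and 24.4 CPM, and the arms overlapped (log2 fold change -0.052, SE 0.10, edgeR adjusted p = 0.683). Its difference between lines passed (log2 0.39, SE 0.14, edgeR adjusted p = 0.0448) and was lost in 8 of the 12 fits without 1 library, those without BT-549 CshRNA 2 (0.122), BT-549 CshRNA 3 (0.0782), BT-549 MUC1shRNA 1 (0.0747), BT-549 MUC1shRNA 2 (0.0904), BT-549 MUC1shRNA 3 (0.083), SUM149 CshRNA 1 (0.0736), SUM149 CshRNA 2 (0.0725) and SUM149 MUC1shRNA 1 (0.0999). IRF7, which amplifies interferon production, was at 1.04 ± 0.246 and 1.3 ± 0.472 CPM in BT-549 and 1.79 ± 0.307 and 1.06 ± 0.453 in SUM149, where the silenced libraries were at or below the lowest control and the test was not passed (log2 fold change -0.76, SE 0.32, edgeR adjusted p = 0.0557), except under upper-quartile scaling (0.0412) and without MUC1shRNA 2 (0.0183). IRF9, the DNA-binding subunit of ISGF3, had 47 and 26 counts in BT-549 (log2 fold change -0.83, SE 0.40, edgeR adjusted p = 0.139) and 33 and 17 in SUM149. Of its exon bases 48.4% overlap AL136295.5 on the same strand, so these counts are uncertain.

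Set side by side, 27 members were tested in both lines, 13 with the same sign and 14 with opposite signs. IFIT1 and IFITM1 fell in both and PARP14 rose in both. OAS3, IFITM3 and SAMD9 fell in BT-549 and rose in SUM149, and HERC6 did the reverse. The response differed between the lines for 17 of 36 members tested over all 12 libraries, where 39.6% of all 15649 genes tested did. For 10 of these, HERC5, HERC6, IFIT1, IFIT2, IFIT3, IFIT5, IFIH1, DHX58, IFI44 and STAT2, the response in BT-549 was the higher, and for ISG15, OAS3, IFITM3, ISG20, SAMD9, PARP9 and EPSTI1 the lower. Of the 17, 12 passed in each of the 12 fits without 1 library. By the levels alone, silenced and control libraries did not overlap for 24 of 30 members in SUM149, 10 higher and 14 lower, where 29.3% and 33.2% of all tested genes were. In BT-549 they did not overlap for 13 of 33, 5 higher and 8 lower, where 23.8% and 23.2% were. SUM149 arms differed in depth by 2.44 times, and after the CshRNA counts were thinned to the depth of the MUC1shRNA libraries 21 members passed, 8 that rose and 13 that fell.

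**Figure D4:**
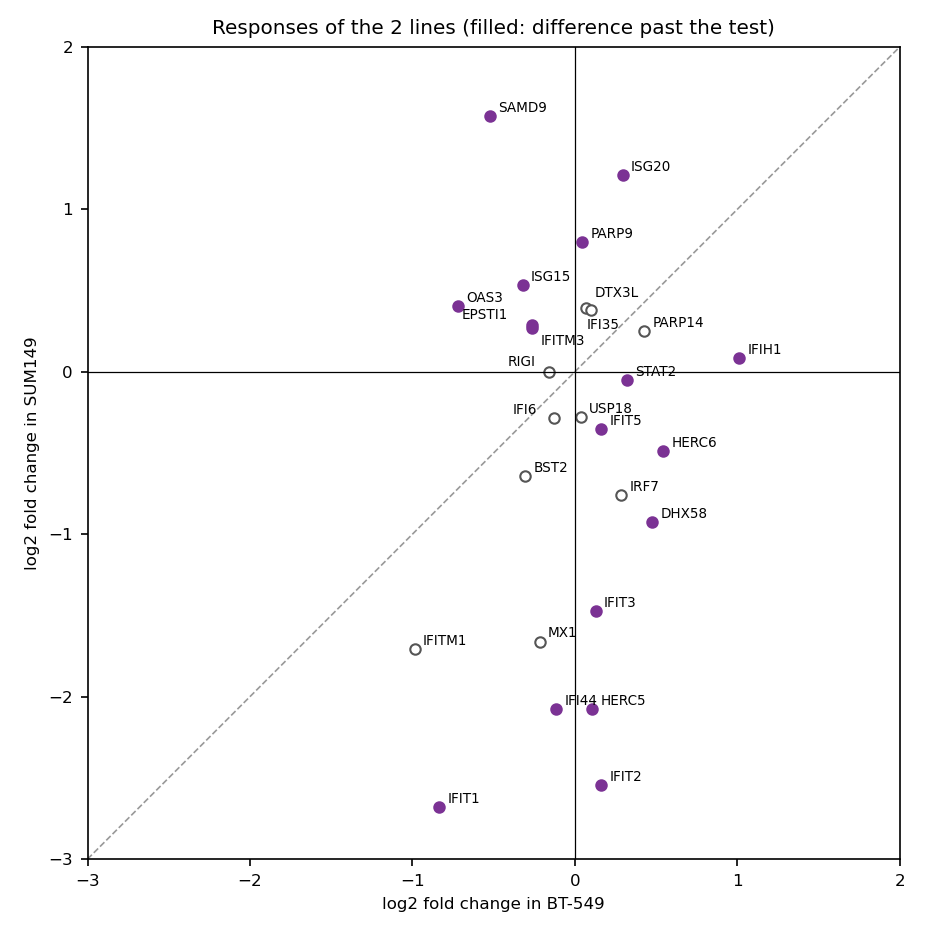
Log2 fold change in SUM149 against that in BT-549 for the 27 genes tested in both lines. Filled points are genes whose difference between lines passed the test, and the dashed line marks equal responses. SAMD9 lies farthest above the line, and IFIT2 and HERC5 farthest below it.

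1 BT-549 control library stood apart in these genes. CshRNA 3 was the lowest of its arm in 25 of the 33 tested members (75.8%), beside 39.3% of all tested genes. Its median log2 distance from the mean of the other controls was -0.38 over the members. OAS2 (1.98 CPM against 6.21 and 6.03) and MX1 were among the farthest below. Summed over the 39 members without IFITM3, the level was 381 CPM in CshRNA 3, 504 and 519 in the other controls, and 480.2, 434 and 473 in the silenced libraries. So the control arm spanned more than the distance between arms. Over all genes too, CshRNA 3 lay far from its replicates (chi-square per degree of freedom 14.5 and 13.7, against 4.43 between the other 2). MUC1shRNA 2, whose counts over all genes lay farthest from the rest within the silenced arm (chi-square per degree of freedom 8.53 and 8.34, against 1.85 between the other 2), was the lowest of its arm in 13 members (39.4%), near the 39.5% of all genes. Without both CshRNA 3 and MUC1shRNA 2, 15 members passed in BT-549, of which 2 rose and 13 fell. HERC6 and STAT2 were then lost, and BST2, EPSTI1, ISG15, MX1 and RIGI passed as lower. The shares of all genes that rose and fell in that fit are not given here. These counts are therefore not shown to be particular to the members.

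**Figure D5:**
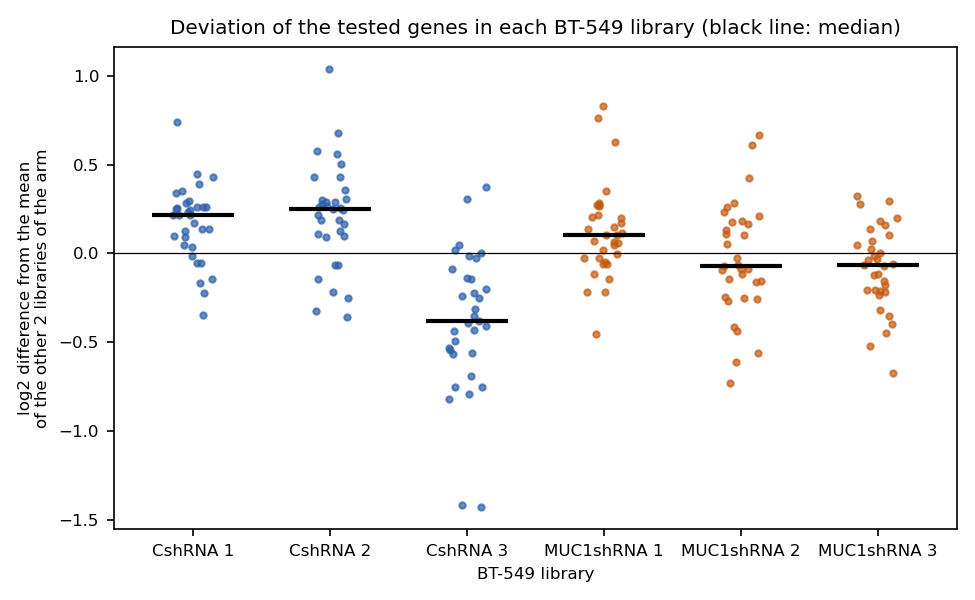
Distance of each BT-549 library (horizontal axis) from the mean of the other 2 libraries of its arm, as the difference of log2(CPM + 0.5), for the 33 tested genes (points, black line at the median). The cloud of CshRNA 3 lies mostly below 0 with its median at -0.38, and those of the other 5 libraries have medians from -0.070 to 0.25.

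Interferons themselves were hardly seen. Of 21 interferon genes, 17 had no count in any library, IFNE had 31 counts over all libraries, all in BT-549, IFNB1 had 5, all in SUM149, and IFNA10 and IFNA21 had 1 each. For a gene with none, 3 counts over all libraries would be 0.0149 CPM, a limit that covers counting error only. Among the receptors and their kinases, 2 of 8 tested genes rose and 1 fell in BT-549, and 3 rose and 3 fell of 9 in SUM149. For this and the lists that follow, 16.8% of all tested genes rose and 16.5% fell in BT-549, and 27.6% and 28.9% in SUM149. IFNGR1, a chain of the receptor for interferon gamma, rose in BT-549 (log2 fold change 0.55, SE 0.092, edgeR adjusted p = 0.00177) and fell in SUM149 (log2 fold change -0.77, SE 0.071, edgeR adjusted p = 9.77e-07). JAK1 rose in BT-549 (log2 fold change 0.19, SE 0.046, edgeR adjusted p = 0.0112) and IL10RB fell there (log2 fold change -0.25, SE 0.067, edgeR adjusted p = 0.0173), calls lost without MUC1shRNA 1 (0.064 and 0.0813) or 3 (0.052 and 0.0766). JAK1 rose in SUM149 as well (log2 fold change 0.27, SE 0.068, edgeR adjusted p = 0.00415). In SUM149 the kinase TYK2 fell (log2 fold change -0.55, SE 0.089, edgeR adjusted p = 0.000167) and the type I receptor chain IFNAR1 rose (log2 fold change 0.29, SE 0.064, edgeR adjusted p = 0.00183).

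Among other transcription factors of the pathway, IRF1, an activator induced by interferon gamma, rose in BT-549 (log2 fold change 0.30, SE 0.054, edgeR adjusted p = 0.0024) and SUM149 (log2 fold change 0.56, SE 0.12, edgeR adjusted p = 0.00123). STAT3 rose in BT-549 (log2 fold change 0.18, SE 0.057, edgeR adjusted p = 0.035), lost without CshRNA 2 (0.103), MUC1shRNA 1 (0.126) or MUC1shRNA 2 (0.0716), and in SUM149 (log2 fold change 0.24, SE 0.065, edgeR adjusted p = 0.00654). IRF5 fell in SUM149 (log2 fold change -1.50, SE 0.18, edgeR adjusted p = 1.43e-05) and in BT-549 (log2 fold change -1.16, SE 0.40, edgeR adjusted p = 0.0477), there from 59 and 26 counts. The call in BT-549 was lost without CshRNA 1 (0.106), CshRNA 2 (0.134), MUC1shRNA 1 (0.176) and MUC1shRNA 2 (0.11), and in DESeq2 (adjusted p = 0.0876). Among adaptors and kinases upstream of interferon, 1 rose and 4 fell of 12 in BT-549, and 5 rose and 3 fell of 12 in SUM149. STING1, the adaptor that signals cytoplasmic DNA, was at 6.21, 5.57 and 5.37 against 0.668, 0.825 and 0.802 CPM in BT-549 and 14.9, 15.5 and 13.8 against 4.01, 4.45 and 5.39 CPM in SUM149. It fell in both lines, by 2.90 (SE 0.19, edgeR adjusted p = 6.45e-06) and 1.65 (SE 0.14, edgeR adjusted p = 5.29e-07). The DNA sensor IFI16 fell in BT-549 (log2 fold change -0.65, SE 0.079, edgeR adjusted p = 0.000299) and in SUM149 (log2 fold change -0.31, SE 0.084, edgeR adjusted p = 0.00746), the latter lost without MUC1shRNA 2 (0.0507). The RNA receptor TLR3 rose in BT-549 (log2 fold change 1.09, SE 0.15, edgeR adjusted p = 0.000635). In SUM149 TRIM25, a ubiquitin ligase that activates RIG-I signalling, fell (log2 fold change -0.97, SE 0.069, edgeR adjusted p = 9.1e-08) and the adaptor MYD88 rose (log2 fold change 1.21, SE 0.089, edgeR adjusted p = 1.28e-07).

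Among negative regulators of the pathway, 1 of 10 tested genes rose in BT-549 and none fell, and 5 rose and 3 fell of 10 in SUM149. IRF2BP2, a partner of the repressor IRF2, rose in BT-549 (log2 fold change 0.19, SE 0.054, edgeR adjusted p = 0.0228), lost without CshRNA 2 (0.0565), MUC1shRNA 1 (0.0504) or MUC1shRNA 3 (0.0837), and fell in SUM149 (log2 fold change -0.85, SE 0.074, edgeR adjusted p = 6.06e-07). IRF2BP1 and SOCS3 did not pass in BT-549 (log2 fold change -0.30, SE 0.10, edgeR adjusted p = 0.0529, and log2 fold change -0.42, SE 0.16, edgeR adjusted p = 0.0742). Both passed without the filter (0.0225 and 0.000739) and without CshRNA 2 (0.0165 and 0.0303) or MUC1shRNA 2 (0.0424 and 0.0129). IRF2BP1 fell in SUM149 (log2 fold change -0.35, SE 0.11, edgeR adjusted p = 0.0135), lost without MUC1shRNA 1 (0.0691) and MUC1shRNA 3 (0.0937). SOCS3, an inhibitor of JAK kinases, rose in SUM149 (log2 fold change 1.44, SE 0.19, edgeR adjusted p = 3.26e-05), as did the phosphatase PTPN1 (log2 fold change 0.58, SE 0.063, edgeR adjusted p = 4.45e-06). Of 50 further genes known to respond to interferon, 8 rose and 7 fell of 40 tested in BT-549, and 18 rose and 8 fell of 36 in SUM149. These were 20% and 17.5% in BT-549, beside 16.8% and 16.5% of all tested genes. In SUM149 they were 50% and 22.2%, beside 27.6% and 28.9%. WARS1, the tryptophan tRNA synthetase, fell in BT-549 (log2 fold change -0.45, SE 0.057, edgeR adjusted p = 0.000389) and in SUM149 (log2 fold change -1.81, SE 0.067, edgeR adjusted p = 2.58e-10). UBE2L6, the ISG15 conjugating enzyme, rose in BT-549 (log2 fold change 0.80, SE 0.10, edgeR adjusted p = 0.00039), where the helicase MOV10 also rose (log2 fold change 0.46, SE 0.058, edgeR adjusted p = 0.00039). UBE2L6 fell in SUM149 (log2 fold change -0.80, SE 0.11, edgeR adjusted p = 5.14e-05). MOV10 rose there too (log2 fold change 0.18, SE 0.071, edgeR adjusted p = 0.0455), a call lost without CshRNA 2 (0.177), CshRNA 3 (0.104), MUC1shRNA 1 (0.0888), MUC1shRNA 2 (0.0559) and MUC1shRNA 3 (0.0662) and under upper-quartile scaling (0.158). In SUM149 the guanylate-binding protein GBP3 rose (log2 fold change 1.57, SE 0.092, edgeR adjusted p = 1.52e-08) and SLFN5 fell (log2 fold change -1.35, SE 0.083, edgeR adjusted p = 2.57e-08). GBP3 rose in BT-549 as well (log2 fold change 0.72, SE 0.11, edgeR adjusted p = 0.000976), and so did SLFN5 (log2 fold change 0.28, SE 0.087, edgeR adjusted p = 0.035), whose call there was lost without CshRNA 1 (0.0537), CshRNA 2 (0.0743), CshRNA 3 (0.0755), MUC1shRNA 1 (0.155) and MUC1shRNA 2 (0.0571). The median log2 fold change over the 36 tested in SUM149 was 0.21, against -0.28 over the 30 tested members.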

How the data were processed

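RNA of 12 libraries was measured after Trizol isolation and TruSeq Stranded mRNA preparation, per the labels' protocols. The authors deposited raw read counts per Ensembl gene. The submitters' processing notes list the build GRCh38.p7 and, with no role, STAR 2.7.0, CASAVA 1.8.2 and DESeq2 1.24.0. For the counting tool, strand setting and annotation, the sources used here give nothing. Of 58037 entries, 45 copies on the pseudoautosomal part of Y were left out. Symbols, exon lengths and overlaps came from GENCODE release 29, in which 57388 entries matched. A chi-square of counts between replicates, divided by its degrees of freedom, ran from 1.85 to 14.5, so no library was a copy of another of its arm.

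The 6 libraries of a line entered 1 fit in edgeR 4.0.16 under R 4.3.3 (TMM, filterByExpr at its defaults, quasi-likelihood test, Benjamini-Hochberg over all genes tested). The difference between lines was an interaction over all 12 libraries, BT-549 minus SUM149, and the control lines were compared over their 6 libraries. RPKM is CPM per kilobase of exon union. The scripts were tested on simulated counts with planted changes. The members and lists were chosen with earlier results of these data known. All members are named. Every library's value is given for members that passed in 1 or both lines and whose highest arm mean reached 2 CPM. From each other list, the 3 genes of lowest adjusted p per line are named, with the other line where they passed there too, and MUC1 as a check. Some results of these other lists are not reported here. PGR, EPCAM, CDH1 and other cell markers were named outside this rule after their values were seen. Alternatives were other scalings and filters, DESeq2 1.42.0, limma-voom 3.58.1, a joint fit, thinned counts, a replicate block, and fits without single libraries.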

Additional observations from a re-analysis of the deposited data

Results flagged for a closer look

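The response to the MUC1 hairpin differed between the lines, by edgeR's interaction test, for 17 of 36 members tested, where 39.6% of all 15649 genes tested did. Values are log2 differences, BT-549 minus SUM149. The response was higher in BT-549 by 2.72 for IFIT2, 2.19 for HERC5, 1.96 for IFI44, 1.85 for IFIT1, 1.62 for IFIT3, 1.41 for DHX58, 1.05 for HERC6, 0.94 for IFIH1, 0.53 for IFIT5 and 0.39 for STAT2. It was lower in BT-549 for SAMD9 (-2.08), OAS3 (-1.11), ISG20 (-0.90), ISG15 (-0.84), PARP9 (-0.73), EPSTI1 (-0.53) and IFITM3 (-0.51). The calls of IFIT5, DHX58, ISG20, EPSTI1 and STAT2 were lost in 4, 7, 6, 10 and 8 of the 12 fits without 1 library. In HERC5, IFIT2, IFIT3 and IFI44 the fall in SUM149 exceeded 1 on the log2 scale while the change in BT-549 did not pass, and in OAS3, SAMD9, IFITM3 and HERC6 both lines passed in opposite directions. Line, medium and perhaps control construct differ together between the lines and cannot be told apart. Depth was lower in the SUM149 MUC1shRNA libraries alone, at 7931614 to 9623924 total counts, and its part in these differences was not tested.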

How the results depend on the processing

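In SUM149, 21 members passed under 7 of the alternatives other than leaving out 1 library, 22 with all 12 libraries in one fit, and 17 with at least 5 CPM required in 3 libraries, where fewer genes were tested. In BT-549, 12 members passed (9 under DESeq2, 14 without the filter). The 5 CPM filter left 6 changed and 3 that fell. The members that rose numbered 2 under DESeq2, 1 with the replicate block and 2 without both CshRNA 3 and MUC1shRNA 2, where 13 fell. The shares of all genes called under these settings are not given here. Of the 12 calls in BT-549, 6 passed in every alternative that tested them, other than leaving out 1 library. HERC6 and STAT2 missed the threshold in DESeq2 and with the replicate block, and IFIT1 in DESeq2 and limma-voom. OAS2 missed it in limma-voom, and SAMD9 and PARP14 with the replicate block. By the same count 20 of 21 calls passed in SUM149, without PARP14, and 14 of 17 differences between lines, without ISG20, EPSTI1 and STAT2. Leaving out 1 library gave 6 to 13 changed members in BT-549, with 1 to 4 that rose and 4 to 11 that fell, 18 to 21 changed in SUM149, and 12 to 17 that differed between lines. Between the controls, the 5 CPM filter left 23 of 35 differences, 11 of them higher in BT-549. The labels do not say whether the numbers in the titles pair the samples. Deviations of same-numbered libraries correlated at 0.129, -0.31 and -0.253 in BT-549 and at -0.0524, 0.0578 and 0.0992 in SUM149. Not every library correlated best with its own number. Deviations from a mean of 3 libraries depend on each other and on the libraries that lay apart, so these values cannot exclude pairing. With the replicate block 8 members passed in BT-549, 21 in SUM149 and 15 between lines.

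Under these alternatives no member turned its sign in a comparison in which it had passed the test. Without both CshRNA 3 and MUC1shRNA 2 the sign turned in BT-549 for HERC5 (-0.052), IFIT2 (-0.076), IFIT3 (-0.042), PARP9 (-0.019), DTX3L (-0.0090), IFI35 (-0.011) and IRF7 (-0.055). In SUM149 it turned for RIGI under DESeq2's size factors in edgeR (0.015) and DESeq2 (0.013), and for STAT2 with thinned counts (0.00097). Leaving out 1 library turned it in BT-549 for HERC5 (-0.075 to 0.24), USP18 (-0.32 to 0.28), MX1 (-0.59 to 0.17), PARP9 (-0.048 to 0.11), DTX3L (-0.058 to 0.17), IFI44 (-0.53 to 0.12) and IRF7 (-0.042 to 0.50), in SUM149 for RIGI (-0.091 to 0.18), IFITM2 (-0.17 to 0.039) and STAT2 (-0.11 to 0.053), and for the difference of USP18 (-0.038 to 0.56). Leaving out 1 library also gave calls absent from the fits of all libraries. Among them in BT-549 were RIGI and EPSTI1 without CshRNA 3 (edgeR adjusted p = 0.0458 and 0.0162). BST2 and IRF9 passed there without MUC1shRNA 2 (0.0475 and 0.0338), and IFI6 in SUM149 without MUC1shRNA 3 (0.0471). RIGI, EPSTI1 and BST2 passed as well without both CshRNA 3 and MUC1shRNA 2 (0.0405, 0.00789 and 0.0242). The cause was not tested. OAS1, OAS2, MX2, RSAD2, CMPK2, SAMD9L, IFI27, XAF1 and IRF9 had too few counts to be tested in SUM149. Over the CshRNA libraries, the deeper arm there, their counts ran from 1 (XAF1) to 45 (OAS1).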
